A study of Mus musculus with 6 samples.

Results

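The genes described here encode parts of the photoreceptor outer segment and of the cell architecture around it, and they were followed in the pineal gland of newborn mice with and without Neurod1. The set held 9 genes: Prph2, Rom1, Crb1, Prom1, Fscn2, Impg1, Impg2, Aipl1 and Mpp4. They were chosen by name, and each was read from the array probe sets that the platform annotation assigns to that gene and no other. This rule found 11 probe sets for 8 of the 9 genes, out of 18193 genes named in this way. Impg2 was not analysed here. The probe set of highest mean stood for each gene, and 5 of the 8 genes (Rom1, Prom1, Crb1, Mpp4 and Aipl1) were bright enough to be among the 12797 genes tested. Prph2, Fscn2 and Impg1 lay among the dimmest 40% of probe sets and were not tested.

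An outer segment is a modified cilium filled with stacked membrane discs, which carry the photopigment and the proteins of light detection. The rims of the discs are held by a pair of related tetraspanins, new discs grow out at the base of the segment, and a polarity complex at the apical membrane keeps the inner segment and its adhesion belt in shape. The pineal gland shares a developmental origin and many transcripts with the retina: pinealocytes of fish and birds detect light and carry outer segments, whereas those of mammals have lost light detection and keep parts of the photoreceptor gene programme. Neurod1 codes for a transcription factor of the basic helix-loop-helix class, which acts in photoreceptors as well as in neurons and endocrine cells.

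The wildtype group was made of 129 mice and the other group of mice of the same strain homozygous for a Neurod1 knockout, all at postnatal day 0 and kept with 12 h of light a day and 12 h of darkness, with glands taken by day. Each group had 3 pools of 3 glands, and each pool was run on 1 Affymetrix array. The labels name neither the knockout allele nor the sex of the pups, and pools of the same number in the 2 groups share a date, so differences are also given within pool number. Values are signals in linear units as scaled by the authors, and differences are knockout minus wildtype on the scale log2(signal + 38.6), which understates the change of dim genes. Precision is limited by the number of arrays. With 3 pools against 3 an exact permutation test cannot go below p = 0.1, so tests come from a limma fit across all tested genes.

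Neurod1 itself had signals between 7519 and 9301 in wildtype and between 122.5 and 524 in knockout (log2 difference −4.67, limma adjusted p = 0.0362), so the target gene followed the labels. The tissue matched its label: the pinealocyte genes Tph1 and Sag, for tryptophan hydroxylase and arrestin, had signals of at least 2755 and 3894 in every pool. Of the retina markers, 2 were bright enough to test (Nrl and Rlbp1), while Gnat1 and Opn1mw of rod and cone signalling stayed at or below 28.6 in all 6 pools and Opn1sw at or below 120.7. The arrays differed in ways that genotype did not order. Ttr of choroid plexus was low, at 898 and 685, in wildtype pool 1 and knockout pool 3, and at least 38903 in the other pools, Crisp2 of male germ cells marked the pools numbered 2, and 140 genes picked by the symbol prefixes of ribosomal and respiratory chain proteins had a median 1.16 above their mean over the 6 arrays in knockout pool 1, against −0.65 to 0.10 in the rest.

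No member passed the threshold in the knockout comparison, and none separated the groups. All 5 tested members had a lower mean in knockout, with log2 differences from −0.43 for Prom1 to −0.72 for Mpp4. Knockout pools 2 and 3 held the low values of most members, whereas knockout pool 1 was the highest of all 6 pools for Prom1 and Aipl1. The members are taken in turn below by the part of the cell they serve, after the promoters of the members that carry a photoreceptor-type motif.

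Promoter sequences were read from RefSeq for assembly GRCm38.p6, as the 250 bases upstream of each annotated start, and all 9 genes matched. The motifs searched on both strands were the E-box CANNTG, bound by basic helix-loop-helix factors, its forms CAGATG and CAGCTG, the core TAATCC bound by CRX and OTX2, and the homeodomain core TAATTA. Every CAGATG or CAGCTG match is also a CANNTG match. Among the tested members TAATCC was found upstream of an inner start of Aipl1 and of the inner start of Mpp4. Those sequences are shown with every match in capitals. The Aipl1 stretch is chr11:72037510-72037759 and that of Mpp4 chr1:59161637-59161886, both on the minus strand. The annotated bounds of Aipl1 are 72028717 and 72042460, so its stretch lies inside the gene.
Aipl1: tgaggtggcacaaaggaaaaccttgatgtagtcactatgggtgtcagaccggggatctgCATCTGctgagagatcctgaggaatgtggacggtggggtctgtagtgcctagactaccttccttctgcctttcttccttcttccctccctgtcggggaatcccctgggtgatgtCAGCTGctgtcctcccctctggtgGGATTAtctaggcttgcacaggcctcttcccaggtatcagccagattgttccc
Mpp4: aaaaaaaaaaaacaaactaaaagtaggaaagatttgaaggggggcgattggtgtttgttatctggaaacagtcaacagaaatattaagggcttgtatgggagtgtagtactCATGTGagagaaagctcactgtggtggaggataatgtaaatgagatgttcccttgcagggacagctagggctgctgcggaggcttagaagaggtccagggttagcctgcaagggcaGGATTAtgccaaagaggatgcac
In the Aipl1 sequence the capitals mark CATCTG (the reverse complement of CAGATG) starting 191 bases before the start, CAGCTG at 77 and GGATTA (the reverse complement of TAATCC) at 53. In the Mpp4 sequence they mark CATGTG at 139 and GGATTA at 23. The outer start of Mpp4, an inner start of Crb1 and the first of the 2 starts of Prom1 each had 1 E-box of another form. The Rom1 stretch held none of the motifs. Among 32851 promoters of the same length, CANNTG occurred in 66.2%, CAGATG in 14.4%, CAGCTG in 13%, TAATCC in 6.25% and TAATTA in 4.84%. A match is a description of the letters and does not show binding.

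**Figure D1:**
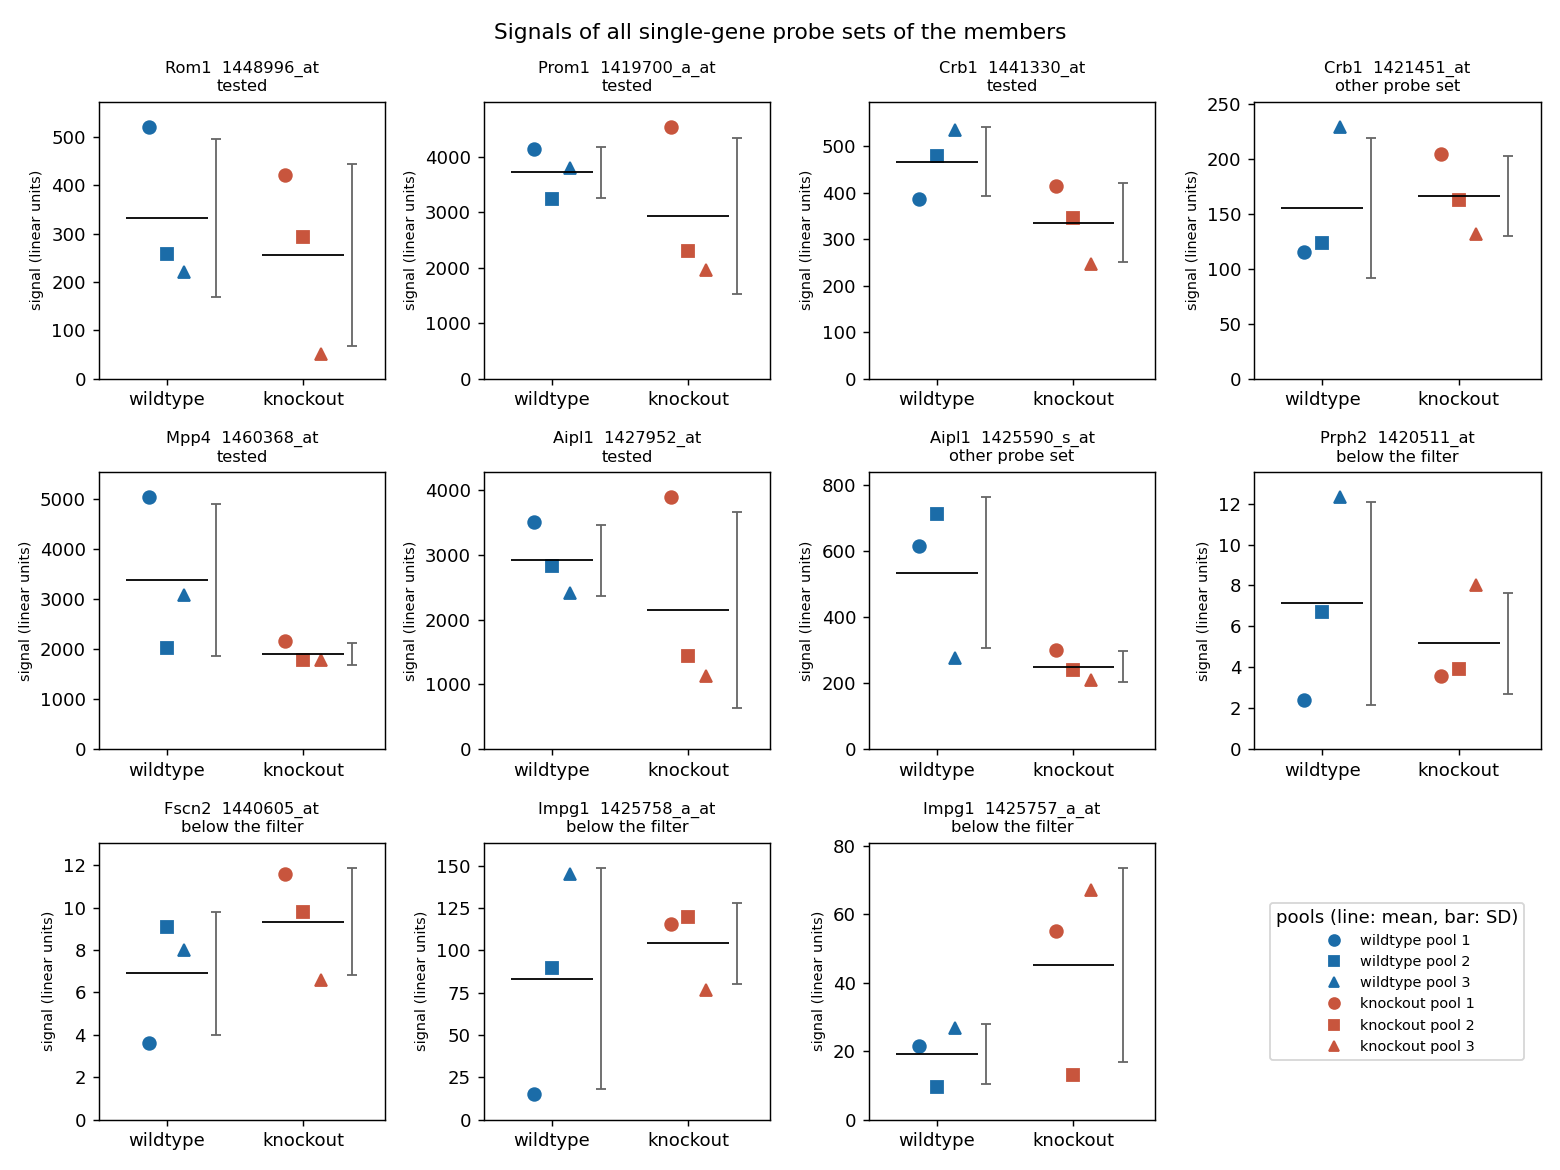
Signal of every single-gene probe set of the members in linear units, by genotype. Points are pools, with the pool number given by the symbol, horizontal lines are group means and bars SD (n = 3). The genotypes overlap in all 11 panels, and Prph2 and Fscn2 stay at or below 12.3.

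Of the disc rim tetraspanins, Rom1 was bright enough to test and Prph2 was near the floor of the array. Rom1, whose protein assembles with peripherin 2, had signals of 520.3, 258 and 221 in wildtype pools 1, 2 and 3 and of 422, 293.5 and 50.8 in knockout pools 1, 2 and 3. Both pools numbered 1 were high and knockout pool 3 was the lowest of all, so the groups overlapped widely. The knockout pool 3 value lay under the filter level of 104.7 and not far above the 20th percentile of that array, 41.7. The means were 333 ± 163 in wildtype and 255 ± 188 in knockout (n = 3, SD), a log2 difference of −0.55 (SE 0.59, 95% interval −1.88 to 0.78, limma adjusted p = 0.998). Within pool numbers 1, 2 and 3 the Rom1 difference was −0.28, 0.16 and −1.54. Its direction rested on 1 pool: with 1 pool left out at a time, the difference ran from −1.02 without knockout pool 1 to 0.16 without knockout pool 3.

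Prph2, which encodes peripherin 2, the tetraspanin that curves the disc rim, had signals of 2.4, 6.7 and 12.3 in wildtype and 3.6, 3.9 and 8.0 in knockout. Only 0.369% of all probe sets had a lower mean. At this level no difference between the genotypes was detectable, and none is drawn.

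Among the genes of disc formation, Prom1 was bright and Fscn2 was not measurable. Prom1 encodes prominin 1, a membrane protein of plasma membrane protrusions and of nascent discs, which progenitor and epithelial cells express as well. Its signals were 4143, 3236 and 3795 in wildtype pools 1, 2 and 3 and 4543, 2304.5 and 1953 in knockout pools 1, 2 and 3. The highest value of the 6 was that of knockout pool 1, and the 2 lowest were the remaining knockout pools. The means were 3724.5 ± 458 and 2934 ± 1405 (n = 3, SD), a log2 difference of −0.43 (SE 0.37, 95% interval −1.27 to 0.41, limma adjusted p = 0.998). Within numbers 1, 2 and 3 the difference was 0.13, −0.48 and −0.94. With 1 pool left out at a time it ran from −0.79 without knockout pool 1 to −0.19 without knockout pool 3. Markers of progenitors and glia, 7 of 7 tested, had summed signals of 20715 to 23769 in wildtype and 22058 to 33712 in knockout. They did not share a direction: 4 had a higher and 3 a lower mean in knockout, with a median log2 difference of 0.125. Fabp7 alone had 15289 in knockout pool 1, but 2436 and 2213 in knockout pools 2 and 3, beside 7682, 4496 and 5115 in wildtype. The part of progenitors and glia in the Prom1 values was not tested.

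Fscn2, the gene of the retinal fascin that bundles actin in photoreceptors and hair cells, had signals between 3.6 and 9.1 in wildtype and between 6.6 and 11.6 in knockout, and 0.901% of all probe sets had a lower mean. Its widely expressed relative Fscn1 had 5211.5 ± 1622 in wildtype and 5483.5 ± 1665 in knockout (n = 3, SD).

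The polarity genes Crb1 and Mpp4 were both measured. With the brightest probe set standing for each gene, Mpp4 had the lowest difference of the set, whereas with the mean of probe sets Aipl1 was lower, at −0.77 against −0.72. Crb1 encodes a transmembrane protein of the apical complex that holds the photoreceptor adhesion belt. Its probe set 1441330_at gave 387, 480 and 535 in wildtype pools 1, 2 and 3 and 414, 347 and 246 in knockout pools 1, 2 and 3. Knockout pool 1 lay above wildtype pool 1, and the other 2 knockout pools lay below every wildtype pool. The means were 467 ± 74.8 and 336 ± 84.6 (n = 3, SD), a log2 difference of −0.45 (SE 0.28, 95% interval −1.07 to 0.18, limma adjusted p = 0.998). Within numbers 1, 2 and 3 the difference was 0.09, −0.43 and −1.01. Leaving out knockout pool 3 moved it to −0.26, and leaving out knockout pool 1 to −0.60. The dimmer Crb1 probe set 1421451_at gave 115, 123 and 229 in wildtype and 205, 163 and 132 in knockout, a log2 difference of 0.11. The probe sets of Crb1 therefore disagreed in direction, and their average gave a difference of −0.17.

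Mpp4, a membrane-associated guanylate kinase that scaffolds proteins at photoreceptor membranes, had signals of 5023, 2024 and 3072.5 in wildtype pools 1, 2 and 3. The knockout pools had 2159, 1770.1 and 1780.2, a narrow range that only wildtype pool 2 reached. The means were 3373 ± 1522 and 1903 ± 222 (n = 3, SD), a ratio of 1.77 for wildtype over knockout. The log2 difference was −0.72 (SE 0.37, 95% interval −1.56 to 0.11), with a limma adjusted p of 0.998 and an unadjusted p of 0.0827. Mpp4 was the 1 tested member that was lower in knockout within every pool number, with differences of −1.20, −0.19 and −0.77 in numbers 1, 2 and 3, as were 15.4% of all tested genes. When the pool number entered the fit as a block, the SE became 0.27 and the unadjusted limma p 0.0307, beside 6.24% of all tested genes under 0.05 in that fit, and the adjusted p was 0.768. Without wildtype pool 1 the difference was −0.39, and without wildtype pool 2 it was −1.04.

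The other genes of the apical polarity complex, a list of partners and related scaffolds, had 20 tested members. Among them 0 were called and 0 had an unadjusted limma p under 0.05, beside 0.00781% and 3.34% of all tested genes. The means were lower in knockout for 12 and higher for 8, beside 46.8% lower among all tested genes. The median log2 difference of the list was −0.09, against 0.03 for all tested genes. Mpp5, the scaffold that ties the Crumbs proteins to the tight junction protein PATJ, had 1112 ± 141 in wildtype and 787.5 ± 60.4 in knockout (n = 3, SD), a log2 difference of −0.47 (SE 0.26). It was the 1 gene of the 20 whose groups did not overlap, beside 10.1% of all tested genes. Lin7c, a small scaffold bound by these kinases, had a difference of −0.63 (SE 0.44), and Lin7a one of 0.52 (SE 0.38). Crb3, the Crumbs gene of epithelia, had 585 ± 356 and 638 ± 239 (n = 3, SD).

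Impg1 encodes a proteoglycan of the matrix that surrounds outer segments, and neither of its probe sets was bright enough to test. Probe set 1425758_a_at, with 34.5% of all probe sets below it and thus not far under the filter, gave 14.9, 89.8 and 145 in wildtype and 116, 120 and 76.7 in knockout. The wildtype pools alone spanned the whole knockout range. Probe set 1425757_a_at gave 21.4, 9.6 and 26.7 in wildtype and 55.2, 13.1 and 67.2 in knockout. Both probe sets had higher means in knockout, and both overlapped between the genotypes. Without a filter the brighter one had a log2 difference of 0.39 (SE 0.47, limma adjusted p = 0.998).

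Other matrix genes, from a list of hyaluronan-binding and photoreceptor-associated proteoglycans, had 12 tested members. By limma 0 were called and 1 had an unadjusted p under 0.05, beside 0.00781% and 3.34% of all tested genes. The means were lower for 4 and higher for 8, beside 46.8% lower among all tested genes, with a median of 0.25. Rbp3, the retinoid carrier of the matrix between photoreceptors and pigment epithelium, had 493 ± 83.4 in wildtype and 507 ± 223 in knockout (n = 3, SD). Spock2, a secreted proteoglycan gene, had 111 ± 74.4 and 335 ± 207 (n = 3, SD; log2 difference 1.34, SE 0.53, limma adjusted p = 0.998), and Acan, the aggrecan gene, 540 ± 232 and 864 ± 137. Matrix genes are also made by connective tissue, and the 4 of 4 tested meningeal fibroblast markers had summed signals of 53037 to 55932 in wildtype and 63931 to 86234 in knockout. The single markers differed: log2 differences were 0.75 (SE 0.39) for Mgp, 0.45 (SE 0.28) for Col1a2, 0.22 (SE 0.52) for Col1a1 and 0.02 (SE 0.30) for Dcn. The groups did not overlap for 2 of 4, beside 10.1% of all tested genes, and 0 were called, beside 0.00781%. The part of fibroblasts in the matrix values was not tested.

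Aipl1, which encodes the co-chaperone that photoreceptors need to assemble phosphodiesterase 6, was bright in all pools. Its probe set 1427952_at gave 3502, 2832 and 2410.3 in wildtype pools 1, 2 and 3 and 3883, 1431.5 and 1125 in knockout pools 1, 2 and 3. Knockout pool 1 was the highest of the 6 and knockout pools 2 and 3 were the lowest. The means were 2915 ± 551 and 2147 ± 1512 (n = 3, SD), a log2 difference of −0.63 (SE 0.46, 95% interval −1.67 to 0.40, limma adjusted p = 0.998). Within numbers 1, 2 and 3 the difference was 0.15, −0.97 and −1.07. Leaving out knockout pool 1 gave −1.16, and leaving out knockout pool 3 gave −0.28.

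The dimmer Aipl1 probe set, 1425590_s_at, placed knockout pool 1 differently. It gave 616, 711 and 278 in wildtype pools 1, 2 and 3 and 301, 240.3 and 209 in knockout pools 1, 2 and 3. Only wildtype pool 3 reached into the knockout range, and the log2 difference was −0.91, with −0.95, −1.43 and −0.35 within numbers 1, 2 and 3. Relative to the mean over the 6 arrays, knockout pool 1 stood at 0.74 on the brighter probe set and at −0.21 on the dimmer, while both gave a lower mean in knockout.

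Genes of phosphodiesterase 6 and of its assembly, the clients and helpers of AIPL1, had 12 tested members. Of these, 0 were called by limma and 0 had an unadjusted p under 0.05, beside 0.00781% and 3.34% of all tested genes. Of the 12 means, 10 were lower and 2 were higher, beside 46.8% lower among all tested genes, with a median log2 difference of −0.18. Within numbers 1, 2 and 3 the median was 0.04, −0.75 and −0.38. Pde6c, the catalytic subunit gene of cones, had signals of 6637, 4219 and 3050 in wildtype pools 1, 2 and 3 and of 5519.5, 1437 and 1718 in knockout pools 1, 2 and 3. Like the bright Aipl1 probe set it was high in both pools numbered 1 and lowest in knockout pools 2 and 3. Pde6d, the prenyl-binding subunit that carries lipid-modified proteins, had a log2 difference of −0.69 (SE 0.32), and Unc119, a carrier of acylated transducin, one of −0.58 (SE 0.51), both with a limma adjusted p of 0.998.

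**Figure D2:**
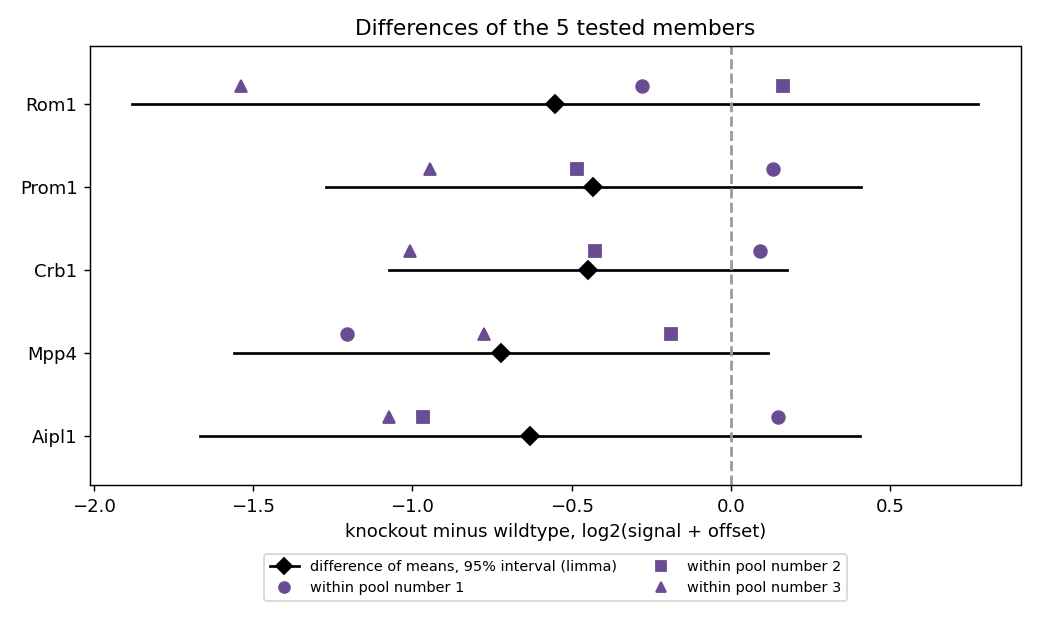
Knockout minus wildtype difference of each tested member on the log2(signal + 38.6) scale. Diamonds with lines are the limma estimate and its 95% interval, and the other symbols are the differences within pool numbers 1, 2 and 3. Every interval includes 0, and number 1 lies above 0 for Prom1, Crb1 and Aipl1.

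Taken over the set, 0 of 5 tested members were called in limma, where 1 gene of all tested, 0.00781%, was called, and 0 of 5 had an unadjusted p under 0.05, against 3.34% of all tested genes. The groups overlapped for 5 of 5 members, while they did not for 10.1% of all tested genes. All 5 had a lower mean in knockout, against 46.8% of all tested genes. The median log2 difference was −0.55 for the members and 0.03 for all tested genes, and from 2.19% (Mpp4) to 9.94% (Prom1) of all tested genes lay at or below a member. These 5 genes share cells and arrays and are not independent, and lower levels of photoreceptor genes in these knockout pools were known when the set was chosen, so the shared direction is a description.

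**Figure D3:**
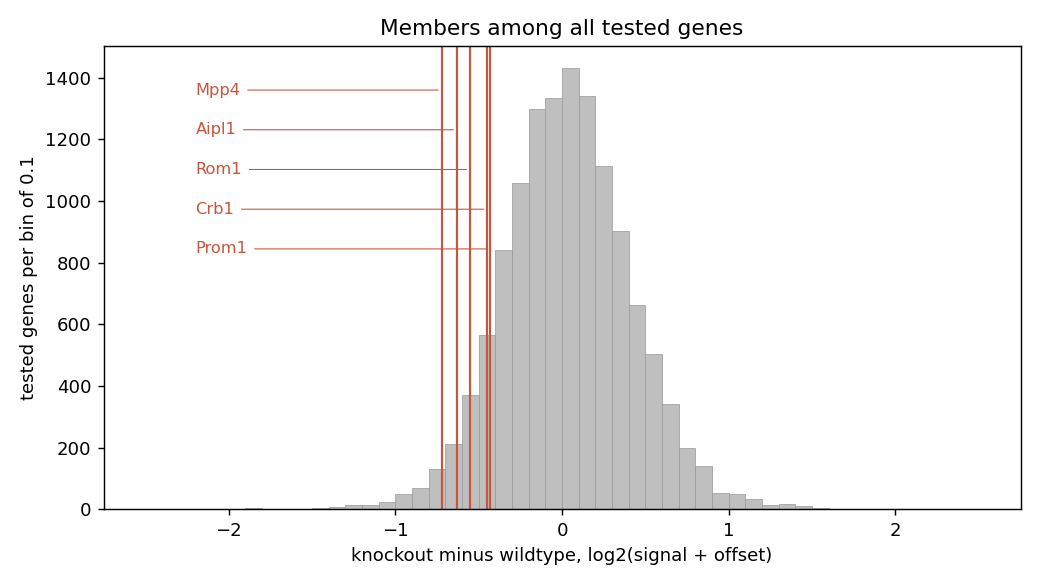
Histogram of knockout minus wildtype log2 differences over the 12797 tested genes, in bins of 0.1, with vertical lines at the 5 tested members. The members lie between −0.72 and −0.43, on the lower flank of the distribution, and 1 gene, Neurod1, falls outside the range drawn.

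The direction was not shared by the pool numbers. Within number 1, 2 of 5 members were lower in knockout, beside 44.3% of all tested genes. The members' median difference there was 0.09, close to the 0.11 of all tested genes. Within number 2, 4 of 5 were lower, beside 49.7%, with a median of −0.43 beside 0.004 for all tested genes. Within number 3, 5 of 5 were lower, beside 54.4%, with a median of −1.01 beside −0.06.

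By single pool, most members were low in 2 knockout pools and not in the other 4 pools. The members' median deviation from the mean over 6 arrays was 0.59, 0.03 and 0.25 in wildtype pools 1, 2 and 3, and 0.51, −0.46 and −0.70 in knockout pools 1, 2 and 3. In each wildtype pool and in knockout pool 1, 4 of 5 members lay above their own mean, against 1 of 5 in knockout pool 2 and 0 of 5 in knockout pool 3. Pinealocyte markers, 9 of 9 tested, had medians of 0.47, 0.21 and −0.01 in wildtype and 0.42, −0.43 and −0.65 in knockout, and in every pool the members' median was within 0.26 of theirs. The summed signal of these markers ran from 33436 to 49544 in wildtype and from 20283 to 41763 in knockout. Of the 9, 8 had a lower mean in knockout, beside 46.8% of all tested genes, and 0 were called, beside 0.00781%. The groups did not overlap for 3 of the 9 (Chrna3, Aanat and Otx2, all lower in knockout), beside 10.1% of all tested genes. The lowest signal of any of the 9 was 85.7. Several of these markers (Crx, Otx2, Sag and Gngt1) are photoreceptor genes too. In bulk glands, fewer pinealocytes and less RNA per pinealocyte cannot be told apart, and the part of either in the members' values was not tested.

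Macrophage markers ran opposite to the members by genotype. Of 5, 4 were tested and 4 of 4 had a higher mean in knockout, whereas 46.8% of all tested genes had a lower one. By limma 0 were called, 2 had an unadjusted p under 0.05 and 3 did not overlap, beside 0.00781%, 3.34% and 10.1% of all tested genes. Aif1, with signals between 27.2 and 240.6, was below the filter and not tested. The median log2 difference of the 4 tested markers was 0.69, and their summed signals ran from 4354 to 5693 in wildtype and from 7442 to 9503 in knockout. By pool their median deviation was −0.60, −0.17 and −0.35 in wildtype pools 1, 2 and 3 and 0.48, 0.20 and 0.29 in knockout pools 1, 2 and 3, so that knockout pool 1 was high in these markers and in the members alike. The part of macrophages, or of the fibroblasts given with the matrix genes, in the members' values was not tested.

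Other measures moved with knockout pool 1 as well. The 140 genes picked from the tested genes by the symbol prefixes of ribosomal and respiratory chain proteins had their highest median there. Their summed signal was 2271600, against at most 993140 in a wildtype pool. The prefixes also take in genes outside these families, such as Rps6ka6. Choroid plexus and ependyma markers, of which 4 were tested, did not follow the members: their median was −1.38 and −1.43 in wildtype pool 1 and knockout pool 3, in which the members stood highest and lowest. Their summed signals ran from 2640.1 to 72151 in wildtype and from 2431 to 92350.0 in knockout. Without knockout pool 1 the members' median difference was −0.82, and without both pools numbered 1 it was −0.71, with 0 members called in either fit.

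**Figure D4:**
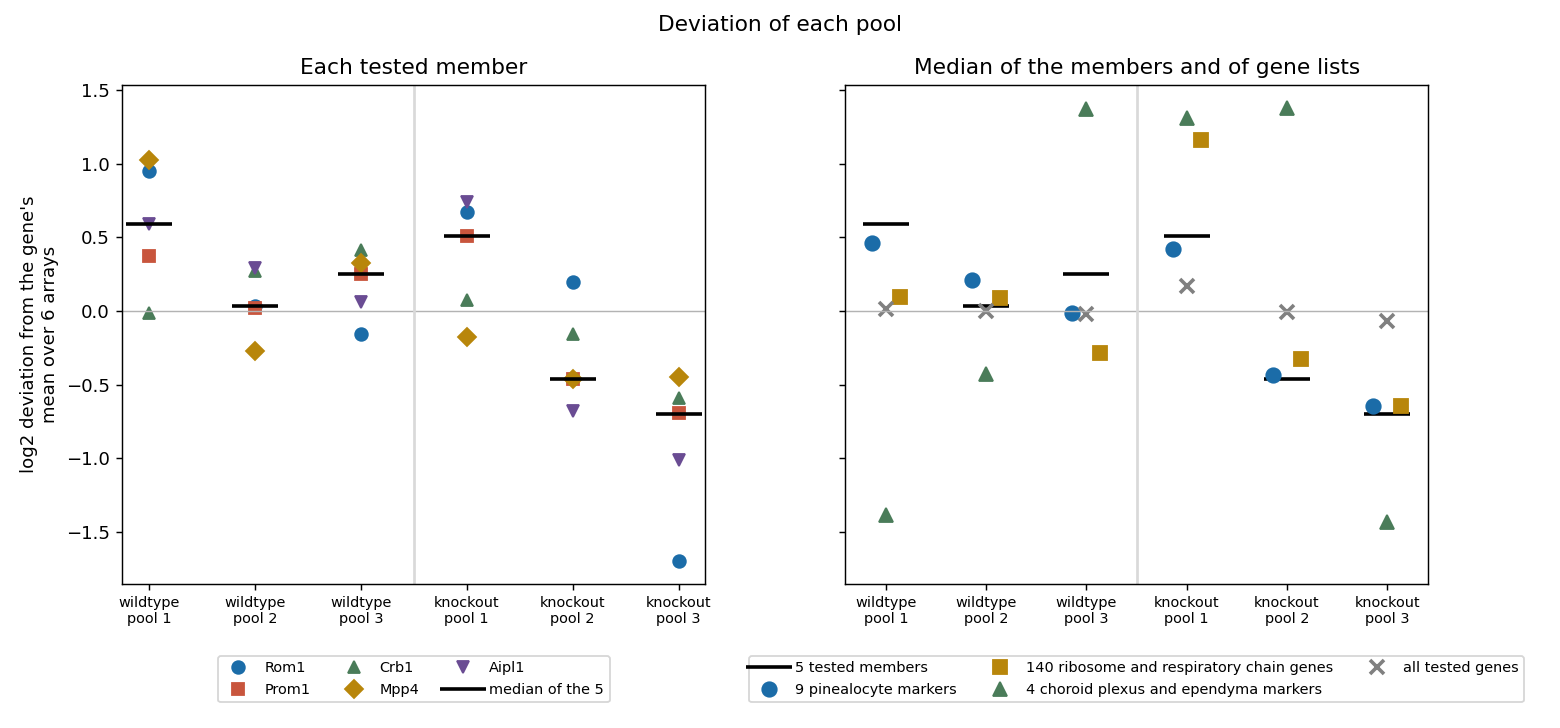
Log2 deviation of each pool from the mean over the 6 arrays, for each tested member (left) and as medians of the members and of marker lists (right). The members' median lies between 0.03 and 0.59 in the wildtype pools and knockout pool 1, and at −0.46 and −0.70 in knockout pools 2 and 3, close to the pinealocyte markers in every pool.

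The members differed from each other in how closely their profiles over the 6 arrays ran. Likeness was measured as the mean absolute distance between profiles centred on their means, as a description over 6 arrays. Prom1 and Aipl1 were the closest pair, 0.24 apart on the log2 scale, followed by Crb1 and Prom1 at 0.27. Rom1 and Crb1 were the farthest apart, at 0.64. Their widest gap was in knockout pool 3, where Rom1 deviated by −1.70 and Crb1 by −0.59, followed by wildtype pool 1, at 0.95 and −0.01. Among all tested genes the closest to Crb1 was Aanat, the arylalkylamine N-acetyltransferase gene of melatonin synthesis, at 0.064, with signals of 397, 450 and 512 in wildtype and 384, 370 and 229.5 in knockout. The median distance of all tested genes to Crb1 was 0.41. Sgip1, Mdh1 and Trmt10b were closest to Prom1, at 0.042 to 0.066. Zmat2, Ccdc107 and Vti1b were closest to Aipl1, at 0.087 to 0.090, Zfp866, Vps50 and B3galnt2 to Mpp4, at 0.108 to 0.118, and Apcdd1, Swap70 and Cep131 to Rom1, at 0.151 to 0.171. With 6 arrays and 12797 genes some profiles lie close without any relation.

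Other outer segment and connecting cilium genes, from a list that excluded the members, had 19 tested members, with 0 called, beside 0.00781% of all tested genes. The means were lower for 13 and higher for 6, beside 46.8% lower among all tested genes, with a median of −0.21. In this list 2 of 19 had an unadjusted limma p under 0.05, beside 3.34%, and 4 of 19 did not overlap between the genotypes, beside 10.1%. Cep290, which encodes a protein of the ciliary transition zone, had 951 ± 305 in wildtype and 442 ± 40.2 in knockout (n = 3, SD; log2 difference −0.997, SE 0.30, limma adjusted p = 0.998), and was lower within all pool numbers. Mak had 310 ± 34.1 in wildtype and 192 ± 24.9 in knockout (−0.60, SE 0.26), and its groups did not overlap. Cep290 and Mak were the 2 genes with an unadjusted limma p under 0.05. Lca5, of ciliary transport in photoreceptors, had 375 ± 77.6 and 232 ± 33.2 (−0.60, SE 0.27). Whrn, a scaffold of the periciliary membrane, was higher in knockout, at 542 ± 177 and 859 ± 128 (0.66, SE 0.30). Cdhr1, a cadherin of nascent discs, had 7504, 5490.5 and 3533 in wildtype pools 1, 2 and 3 and 7250, 3215 and 3048 in knockout pools 1, 2 and 3. As for the bright Aipl1 probe set, both pools numbered 1 were highest and knockout pools 2 and 3 lowest.

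Regulators of photoreceptor genes were a list of 19 tested transcription factors and cofactors. It had 1 called member, Neurod1 itself, the 1 gene called of all tested (0.00781%). The means were lower for 9 and higher for 10, beside 46.8% lower among all tested genes, with a median of 0.05. An unadjusted limma p under 0.05 was found for 2 of 19, beside 3.34% of all tested genes. The genotypes did not overlap for 4 of 19, beside 10.1%. These 4 were Neurod1, Pax6, Otx2 and Neurod4, all lower in knockout. Rxrg had 508 ± 224 in wildtype and 239.5 ± 127 in knockout (n = 3, SD; log2 difference −0.99, SE 0.40, limma adjusted p = 0.998). It was lower within all pool numbers, as were 15.4% of all tested genes, and its groups overlapped. Crx, the homeobox factor that drives many outer segment genes, deviated by 0.86, 0.02 and −0.22 in wildtype pools 1, 2 and 3 and by 0.77, −0.50 and −0.93 in knockout pools 1, 2 and 3. The bright Aipl1 probe set deviated by 0.59, 0.29 and 0.06 and by 0.74, −0.67 and −1.01 in the same pools. Both were high in the pools numbered 1 and low in knockout pools 2 and 3. The dimmer Aipl1 probe set stood at −0.21 in knockout pool 1 and was not high there. Otx2, which acts upstream of Crx, deviated by 0.07, 0.21 and 0.32 in wildtype and by −0.34, −0.0045 and −0.26 in knockout and did not share the high value of knockout pool 1.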

How the data were processed

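Each pool was run on 1 Affymetrix mouse array after a single round of RNA amplification, per the labels' protocols. The deposited table holds a linear intensity (signal) for 45037 probe sets. GCOS is named in the submitters' processing notes; its version and algorithm are not given in the sources used here. The authors had scaled the deposited intensity of each array to a 2% trimmed mean between 499.54 and 499.96, and no further normalization was made here.

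Signals were analysed as log2(signal + 38.6), the offset being the 20th percentile of all values. Of the probe sets, 34945 named 1 gene, 932 several and 9160 none. The 40% with the lowest mean log2 value (a signal under 104.7) were left out, and the probe set of highest mean stood for each gene. The genotypes were compared in limma 3.58.1 (R 4.3.3; lmFit and eBayes with a trend, 4 residual degrees of freedom, two-sided, Benjamini-Hochberg over 12797 genes, called at an adjusted p under 0.05). Per the series' design text the pools of a group were sampled separately.

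On data simulated for this comparison with 12797 genes, the fit recovered 2% of genes changed by 1 on the log2 scale, 54% of those changed by 2 and 82% of those changed by 4. With the pool number as a block it recovered 0%, 12% and 66%. The simulated noise was independent between genes and pools, without the shifts that pools or pool numbers share here, so recovery in the real data can differ.

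Deviations from group means correlated by 0.32, 0.25 and 0.36 within pool numbers 1, 2 and 3, whose dates the labels share, so pools are also treated as paired by number.

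The members and gene lists were chosen with earlier results of these data known. Named genes were the members, Neurod1, up to 4 genes of each list with the smallest p, and the 3 closest profiles to each tested member. Other list genes given (such as Fscn1, Crb3, Rbp3, Cdhr1 and Crx) were chosen after their values were seen. Of the other lists, 4 of 5 endothelial and 4 of 5 male germ cell markers tested had a higher mean in knockout, and 4 of 7 tetraspanin, prominin and fascin relatives a lower one, with 0 called in each. Over all tested genes 46.8% had a lower mean and 0.00781% were called.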

Additional observations from a re-analysis of the deposited data

How the results depend on the processing

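In 19 alternatives to the offset, normalization, filter, probe set, variance model, pairing and pools, the median difference over the tested members stayed below 0, between −0.82 and −0.26, both ends being values with 1 pool left out. The differences of Crb1, Prom1, Aipl1 and Mpp4 were below 0 in all 19. That of Rom1 was not: it was 0.158 without knockout pool 3 and 0.0035 with array weights, and its range with 1 pool left out was −1.02 to 0.158. Members were called under 1 alternative, limma's array weights, in which 3 of 5 passed: Crb1 (adjusted p = 0.0388), Prom1 (0.0396) and Aipl1 (0.00655). That fit called 1420 lower and 1512 higher genes in all. It weighted both pools numbered 2 most (7.05 and 6.20), none of the rest by over 0.541, and the estimation of the weights stopped before it converged.

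The 1 gene called lower in the whole table, Neurod1, was no longer called (0 called) with the offset at the 5th percentile, with no offset and without both pools numbered 1, where its difference was −4.82, −4.87 and −4.80 against −4.67. Leaving out 1 pool gave from 0 to 1 genes called lower, 0 higher and 0 members. Neurod1 missed the threshold in 4 of those 6 fits (without knockout pool 1 or any 1 of the wildtype pools), with differences from −5.04 to −4.13 over the 6. With the pool number as a replicate block, which treats the pools as paired, 1 gene was called lower, 0 higher and 0 members. It changed no other call, and the members' differences stayed as they were, with a median of −0.55. Crb1 moved most with the choice of probe set, from −0.45 to −0.17 for the mean of its probe sets. Signal near the floor of the array limits Prph2 and Fscn2, for which a missing difference says nothing, and Impg1 was below the filter on dim probe sets.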
